A study of Mus musculus with 17 samples.

Results

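Tmem255a, Klhl4, Ldb2, Kif1c and Sparcl1 are 5 little-studied genes of the mouse embryo, selected on their measured signal in these arrays: it was high in freshly sorted Kit- endothelium and lower in most other sorted populations. They are 5 of the 19937 genes measured, each read from the brightest probe set that carries its symbol alone. The array data come from the aorta-gonad-mesonephros (AGM) region of E11.5 mouse embryos, where the first haematopoietic stem cells arise. Fresh CD31+CD45-Ter119- cells were sorted into Kit- (endothelial) and Kit+ (containing the haematopoietic clusters) cells, with 3 arrays each. In the culture experiment the CD31+CD45-Ter119- cells were first placed for 2 h on OP9 stroma overexpressing the Notch ligand Jag1 (OP9-Jag1) or Dll4 (OP9-Dll4), in medium with haematopoietic and endothelial cytokines, and then sorted by Kit into Kit-J (2 arrays), Kit-D, Kit+J and Kit+D (3 arrays each). The methods state independent sorting experiments for the cultured arrays, whose RNA, a few nanograms, was amplified before hybridization. The Kit- and Kit+ cells of a culture were sorted from the same stained cells, so arrays of the 2 fractions need not be independent of each other; the mouse strain of the array samples is not given in the sources used here. The fresh arrays were made for an earlier series, so a difference between cultured and fresh cells cannot be told apart from a difference between the 2 sets of arrays.

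During the endothelial-to-haematopoietic transition, flat endothelial cells of the aorta gain Kit, round up into clusters and lose vascular transcripts such as those of the junction protein VE-cadherin (Cdh5) and the VEGF receptor Kdr. Notch signals from Jag1 and Dll4 act on the same cells and are known to bear differently on the arterial and the haematopoietic fate. The 5 genes encode products of unlike kinds. Tmem255a encodes a transmembrane protein whose function is poorly known. Klhl4 encodes a kelch-like protein, of a family in which many members bring substrates to cullin ubiquitin ligases. Ldb2 encodes a LIM-domain-binding cofactor, related to Ldb1, that bridges LIM transcription factors and LMO proteins. Kif1c encodes a kinesin-3 motor that carries cargo along microtubules. Sparcl1 (hevin) encodes a secreted matrix-associated glycoprotein of the SPARC family.

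Tmem255a and Klhl4 lie on chromosome X, Ldb2 and Sparcl1 on chromosome 5 and Kif1c on chromosome 11 of the RefSeq annotation of GRCm38.p6. A RefSeq promoter window, 250 bases before to 50 bases after the transcript start that the promoter table uses, which in Kif1c and Tmem255a is not the outermost start of the gene, was at hand for 3 of the 5 genes, and these windows are shown because the genes moved together while their promoters are built differently. Capitals mark exact matches to 7 motifs, which were searched on both strands. The RBPJ motif, that of the DNA-binding partner of Notch, was searched as GTGGGAA. The motif of ETS factors, which act in endothelial genes, was searched as CCGGAA. That of GATA factors was AGATAA and that of SOX factors ACAAAG. That of KLF factors was CACCC. The core promoter elements were the TATA box, searched as TATAAA, and the box named CCAAT after its letters.
Tmem255a promoter, chrX:38252432-38252731, minus strand: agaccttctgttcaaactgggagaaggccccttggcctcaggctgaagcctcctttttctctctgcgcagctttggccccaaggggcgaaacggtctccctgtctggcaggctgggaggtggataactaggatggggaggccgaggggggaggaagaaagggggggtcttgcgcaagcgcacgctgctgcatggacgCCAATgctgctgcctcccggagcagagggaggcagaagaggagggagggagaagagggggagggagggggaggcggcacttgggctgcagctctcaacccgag
Klhl4 promoter, chrX:114474083-114474382, plus strand: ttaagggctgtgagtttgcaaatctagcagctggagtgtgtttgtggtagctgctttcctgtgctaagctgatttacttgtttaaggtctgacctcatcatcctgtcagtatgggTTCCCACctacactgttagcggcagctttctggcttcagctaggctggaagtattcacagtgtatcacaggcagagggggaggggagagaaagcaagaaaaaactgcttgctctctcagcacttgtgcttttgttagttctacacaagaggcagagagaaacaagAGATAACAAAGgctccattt
Kif1c promoter, chr11:70700298-70700597, plus strand: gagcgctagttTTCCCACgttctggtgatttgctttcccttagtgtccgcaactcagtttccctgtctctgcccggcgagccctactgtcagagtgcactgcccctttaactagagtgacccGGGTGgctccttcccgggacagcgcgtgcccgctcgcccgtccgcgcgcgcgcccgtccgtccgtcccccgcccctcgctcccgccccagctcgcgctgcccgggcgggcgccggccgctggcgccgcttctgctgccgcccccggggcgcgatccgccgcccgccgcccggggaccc
The Kif1c window had a GC content of 73.3% and 41 CpG dinucleotides, and 96.5% of the 32851 promoter windows in the table had fewer. The Klhl4 window had a GC content of 46.3% and 1 CpG, and only 5.43% of windows had fewer. The Tmem255a window lay between them, with a GC content of 64.0% and 11 CpG, against medians of 52.7% and 7 over all windows. The RBPJ letters stood on the opposite strand in Klhl4, with the leftmost base at -135 counted from that start, and in Kif1c, with the leftmost base at -239, and did not stand in the Tmem255a window; 6.38% of all windows hold them. Klhl4 also held the GATA letters at 31 and the SOX letters at 36, which share 1 base, and 11.2% and 18.7% of all windows hold each of these. Tmem255a held the CCAAT letters at -53 (37.4% of windows) and Kif1c the CACCC letters on the opposite strand at -128 (57.5% of windows). The ETS letters (14.9% of windows) and the TATA letters (13.6%) stood in none of the 3. A match is only a run of letters in this window, and no binding was measured here.

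All values below are log2 signals as deposited, on which a difference of 1 is a 2-fold change, and errors are SD for levels and standard errors for differences. Array medians lay between 5.22 and 5.38. The value table carries no detection calls, so low signals such as those of Klhl4, Tmem255a and Sparcl1 in Kit+ and Kit+J, several of them under the array medians, were not shown to lie above background. The folds and the order of genes below are those of the signal as deposited. Kit itself, the gene of the sort, was at 8.13 to 8.29 in Kit-, 7.05 to 8.02 in Kit-D, 9.44 to 9.55 in Kit+, 9.02 to 9.93 on the Kit+J arrays and 8.51 to 8.995 on the Kit+D arrays, while the Kit-J arrays, at 9.08 and 8.50, reached into the range of the Kit+ sorts. Cdh5 was at 10.999 to 11.10 in Kit- and 11.05 to 11.42 in Kit-D but at 8.15 and 8.29 in Kit-J, so this endothelial marker was lower in Kit-J than in the other Kit- sorts. For both Kit-J arrays and for replicate 3 of Kit-D and of Kit+D, the description line of the sample record names the opposite Kit population, while titles, sources and characteristics give the groups used here. Results that use the Kit-D or Kit+D arrays numbered 3 were recomputed without them, and no value without the conflict can be had for Kit-J. Ptprc, which encodes CD45, ran from 4.16 to 9.20 over the 17 arrays in spite of the CD45- gate. In bulk samples such as these, fewer cells of a type and less RNA per cell cannot be told apart.

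Across all 6 Kit- and Kit-D arrays and the 11 others, the 5 genes gave the same division. Each of them was higher on every one of those 6 arrays than on any of the 11, as were 2.81% of all genes (560), so the signal was held by Kit- cells on OP9-Dll4 as well as by fresh Kit- cells. This division is the pattern the genes were chosen for and is given as a description, with no test. The gap between the lowest of the 6 and the highest of the 11 was 2.60 for Klhl4, 2.10 for Tmem255a, 1.86 for Ldb2, 1.80 for Sparcl1 and 0.60 for Kif1c, which placed Klhl4 second and Kif1c 191st among all genes. The array nearest the gap from below was a Kit+D array for 4 of the genes (replicate 2 for Klhl4 and Kif1c, replicate 3 for Tmem255a and Sparcl1) and Kit-J replicate 2 for Ldb2.

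**Figure D1:**
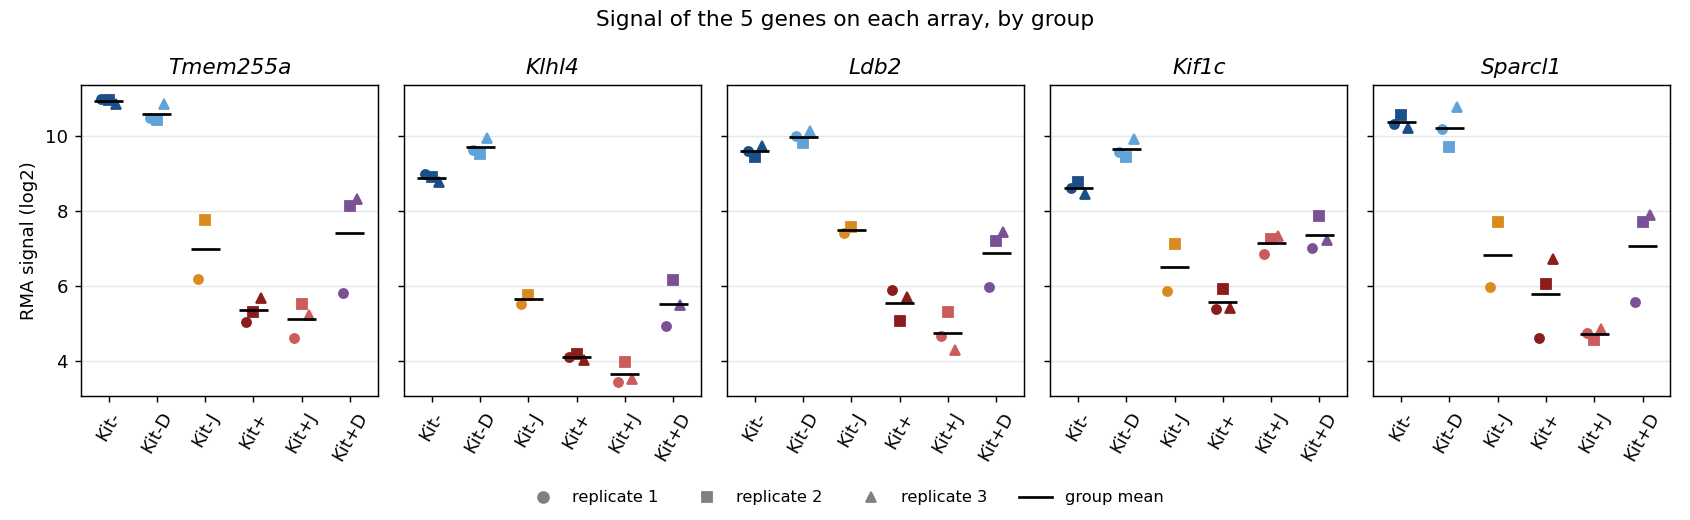
Log2 RMA signal of the 5 genes on each of the 17 arrays, by group; symbols mark the replicate number and lines the group mean. All 6 Kit- and Kit-D arrays lie above the 11 others in each panel, by 0.60 (Kif1c) to 2.60 (Klhl4), and Kif1c alone sits higher in Kit+J than in Kit+ on every array.

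Tmem255a was the gene with the largest fall of all 19937 from Kit- to Kit+. Fresh Kit- cells gave 10.98, 10.96 and 10.86, and Kit-D cells 10.48, 10.43 and 10.84. Fresh Kit+ cells gave 5.06, 5.33 and 5.70, and Kit+J cells 4.62, 5.53 and 5.23. Kit-J gave 6.20 and 7.77, and Kit+D 5.82, 8.15 and 8.33. Kit- and Kit-D were therefore high and close together, Kit+ and Kit+J low and overlapping, and Kit-J and Kit+D spread over the range between, with SDs of 1.11 and 1.40. The order of the means was Kit- (10.93 ± 0.07), Kit-D (10.58 ± 0.23), Kit+D (7.43), Kit-J (6.98), Kit+ (5.36 ± 0.32) and Kit+J (5.13 ± 0.46), in which Kit+D overlapped Kit-J and Kit+ overlapped Kit+J. The fall from Kit- to Kit+ was -5.57 ± 0.53 on the log2 scale, or 47.5-fold, and from Kit- to Kit-J -3.95 ± 0.59, or 15.4-fold.

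Klhl4 had close replicates in the fresh cells and the largest fall of all genes from Kit-D to Kit+D. It was read at 8.99, 8.90 and 8.78 in Kit-, and at 9.63, 9.53 and 9.94 in Kit-D, so that all Kit-D arrays lay above all Kit- arrays. It was read at 4.13, 4.21 and 4.05 in Kit+, and at 3.45, 3.99 and 3.54 in Kit+J, where every array lay below every Kit+ array. Kit-J gave 5.54 and 5.77 and Kit+D 4.94, 6.18 and 5.49, and these 2 groups overlapped each other and no other. The means ran from Kit-D (9.70 ± 0.21) and Kit- (8.89 ± 0.11) through Kit-J (5.65 ± 0.16) and Kit+D (5.54 ± 0.62) to Kit+ (4.13 ± 0.08) and Kit+J (3.66 ± 0.29). Kit+D lay below Kit-D by 4.16 ± 0.24 on the log2 scale (17.9-fold), and Kit+ differed from Kit- by -4.76 ± 0.24 (27.1-fold).

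Ldb2, the LIM-domain cofactor, lay on both Kit-J arrays between its fresh Kit- and Kit+ levels. Its values were 9.61, 9.44 and 9.74 in Kit- and 9.99, 9.82 and 10.14 in Kit-D. They were 5.89, 5.08 and 5.72 in Kit+, and 4.67, 5.32 and 4.30 in Kit+J. The Kit-J arrays gave 7.42 and 7.58 and agreed closely, while Kit+D gave 5.98, 7.21 and 7.45. The 6 means were 9.98 ± 0.16 (Kit-D), 9.60 ± 0.15 (Kit-), 7.50 ± 0.12 (Kit-J), 6.88 ± 0.79 (Kit+D), 5.56 ± 0.43 (Kit+) and 4.76 ± 0.52 (Kit+J), with overlap between Kit-J and Kit+D and between Kit+ and Kit+J. Ldb2 fell by -4.03 ± 0.33 from Kit- to Kit+ (16.4-fold) and by -2.10 ± 0.37 from Kit- to Kit-J (4.28-fold).

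Sparcl1, the matrix glycoprotein, varied widely among its low arrays. Kit- cells gave 10.32, 10.56 and 10.22 and Kit-D cells 10.17, 9.70 and 10.77, which overlapped. Kit+ cells gave 4.62, 6.07 and 6.72, Kit-J 5.98 and 7.71, and Kit+D 5.59, 7.71 and 7.90. Kit+J was uniformly low, at 4.77, 4.56 and 4.86. The means were 10.37 ± 0.17 (Kit-), 10.22 ± 0.54 (Kit-D), 7.07 ± 1.28 (Kit+D), 6.84 ± 1.23 (Kit-J), 5.80 ± 1.07 (Kit+) and 4.73 ± 0.16 (Kit+J), and from Kit+D downwards each group overlapped the next. The difference between Kit+ and Kit- was -4.57 ± 0.60 (23.7-fold), and that between Kit-J and Kit- was -3.52 ± 0.67 (11.51-fold).

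Kif1c, the kinesin, was the one member whose Kit+ cells were higher after either culture. Kit- cells gave 8.61, 8.78 and 8.46, and Kit-D cells 9.58, 9.45 and 9.91, all above Kit-. Fresh Kit+ cells gave 5.38, 5.94 and 5.41, whereas Kit+J gave 6.87, 7.26 and 7.33 and Kit+D 7.02, 7.86 and 7.24, with no overlap between fresh and cultured Kit+ arrays. Kit-J gave 5.88 and 7.14. The order was Kit-D (9.65 ± 0.24), Kit- (8.61 ± 0.16), Kit+D (7.37 ± 0.43), Kit+J (7.15 ± 0.25), Kit-J (6.51 ± 0.89) and Kit+ (5.58 ± 0.31), and every group from Kit+D downwards overlapped its neighbour. Kit+ differed from Kit- by -3.04 ± 0.29 (8.20-fold), the smallest fall of the 5 genes in that comparison, and Kit-J from Kit- by -2.11 ± 0.32 (4.31-fold).

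Kif1c has 2 probe sets on the array, and they disagreed over the Kit+ cells. The dimmer set gave 6.61, 6.81 and 6.42 in Kit-, 7.01, 7.01 and 7.26 in Kit-D, 5.63 and 5.66 in Kit-J, and 5.81, 5.54 and 6.04 in Kit+. It gave 5.86, 6.05 and 5.60 in Kit+J and 5.36, 5.97 and 6.07 in Kit+D, which overlapped fresh Kit+. Both sets were therefore higher in Kit- and Kit-D than elsewhere, and their correlation over the 17 arrays was 0.84. From Kit+ to Kit+J the brighter set rose by 1.58 and the dimmer by 0.04, and from Kit+ to Kit+D the differences were 1.80 and 0.003. From Kit- to Kit+ they were -3.04 and -0.82. With the mean of both probe sets the Kit- to Kit+ difference of Kif1c became -1.93. The sources used here do not say which part of the transcript each set reads.

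**Figure D2:**
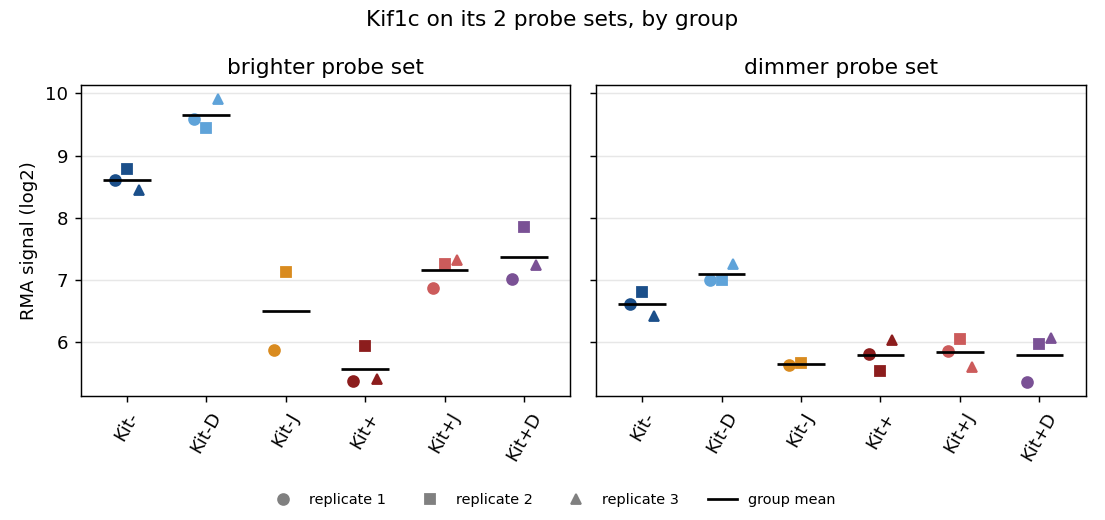
Log2 RMA signal of Kif1c on its brighter (left) and dimmer (right) probe set, by group, with symbols for the replicate number and lines for the group mean. The Kit+J and Kit+D arrays lie above the Kit+ arrays on the brighter set and overlap them on the dimmer set.

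The 4 comparisons that set Kit- or Kit-D against lower groups used the pattern for which the genes were chosen, and they are listed without p-values. In Kit+ against Kit- the median difference of the 5 genes was -4.57, beside 0.06 over all genes, and 2.67% of all genes were called lower and 0.562% higher at a limma adjusted p under 0.05. In Kit-J against Kit- it was -3.24, beside 0.09 over all genes (1.89% called lower, 0.251% higher). There Tmem255a, Sparcl1 and Klhl4 (-3.95, -3.52 and -3.24) lay further down than Kif1c and Ldb2 (-2.11 and -2.10). In Kit-J against Kit-D the median was -3.37, beside 0.11 (6.07% called lower), with Klhl4 at -4.05, Tmem255a at -3.60, Sparcl1 at -3.37, Kif1c at -3.14 and Ldb2 at -2.48. Within the OP9-Dll4 cultures, Kit+D lay below Kit-D by a median of -3.15, beside 0.05 (6.62% called lower), with Kif1c the least changed at -2.27 ± 0.29. Comparisons that share a control group, such as Kit+ and Kit-J against Kit-, are not independent of each other. Without the Kit-D and Kit+D arrays numbered 3, the medians against Kit-D were -3.09 for Kit-J and -3.31 for Kit+D. One Kit-J array decides much of the Kit-J values: the Kit-J against Kit-D median was -2.51 without replicate 1 and -4.16 without replicate 2.

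**Figure D3:**
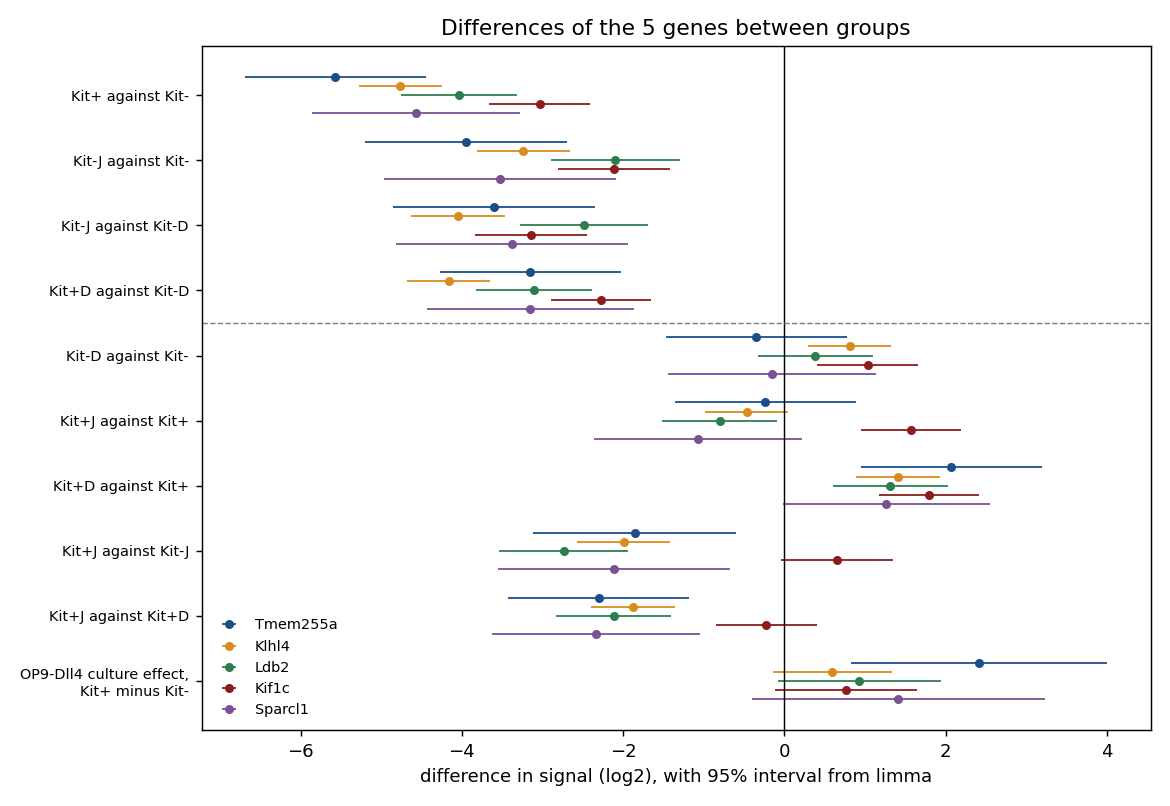
Difference in log2 signal between the groups named on the vertical axis, first minus second, for the 5 genes, with the 95% interval from limma; the dashed line divides the 4 comparisons that chose the genes (above, not tested) from the others (below), of which the OP9-Dll4 culture effect, Kit+ minus Kit-, and Ldb2 in Kit+J against Kit-J are descriptions too. Above the line every interval lies under 0, and below it Kif1c departs from the other 4 genes in Kit+J against Kit+, Kit-J and Kit+D.

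Kit-J and Kit+D were both intermediate, by different amounts for each gene. On a scale where the Kit- mean is 0% and the Kit+ mean 100%, Kit-J stood at 77.2% for Sparcl1, 70.9% for Tmem255a, 69.5% for Kif1c, 68.0% for Klhl4 and 52.0% for Ldb2. On the same scale the endothelial reference genes stood at 80.8% (Kdr) and 57.9% (Cdh5) in Kit-J. Ldb2 and Cdh5 shared the lower position and a close agreement of the 2 Kit-J arrays, at 54.1% and 50.0% for Ldb2 and 59.4% and 56.5% for Cdh5. Sparcl1, by contrast, stood at 96.2% on Kit-J replicate 1 and 58.2% on replicate 2. Kit+D stood at 72.3% for Sparcl1, 70.4% for Klhl4, 67.4% for Ldb2, 62.8% for Tmem255a and 40.8% for Kif1c. Its replicate 1 stood nearest to Kit+ for every gene. On replicates 1 to 3 Sparcl1 was at 104.6%, 58.2% and 54.1%, and Tmem255a at 91.8%, 50.0% and 46.8%. Kif1c was intermediate in Kit+J as well, at 48.1%. With 2 Kit-J arrays, these positions are values with no test.

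Another 5 comparisons set groups against each other that lie on the same side of the division. They share arrays with the comparisons that chose the genes, so their p-values are not fully independent of the choice. The Ldb2 difference between Kit+J and Kit-J was known when the genes were chosen and is given below without a p-value. In Kit-D against Kit-, the Kit- cells with and without OP9-Dll4 culture, limma called 0 of the 5, beside 0.171% of all genes, and 2 of the 5 had an unadjusted p under 0.05, as had 2238 of all 19937 genes. Those were Kif1c at 1.03 ± 0.29 (limma adjusted p = 0.181) and Klhl4 at 0.81 ± 0.24 (adjusted p = 0.211), both higher on every Kit-D array than on any Kit- array. Ldb2 differed by 0.39 (95% interval -0.33 to 1.10) and was also higher on every Kit-D array than on any Kit- array. Tmem255a differed by -0.35 (-1.47 to 0.77) and was lower on every Kit-D array than on any Kit- array, by a narrow margin. The share of all genes that separate in this way is not given here. Sparcl1 differed by -0.15 (-1.44 to 1.13), and its Kit- and Kit-D arrays overlapped. These intervals leave room for changes of over 2-fold, so like levels were not shown.

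On OP9-Jag1 no member passed the test in Kit+ cells. In Kit+J against Kit+ limma called 0 of the 5, beside 0.0201% of all genes, and 2 of the 5 (Kif1c and Ldb2) had an unadjusted p under 0.05, as had 1330 of all genes. Kif1c differed by 1.58 ± 0.29 on its brighter probe set (adjusted p = 0.0972) and was higher on 3 of 3 Kit+J arrays, with the dimmer probe set at 0.04. The other 4 genes were lower on average in Kit+J, by -0.23 (Tmem255a), -0.47 (Klhl4), -0.80 (Ldb2) and -1.07 (Sparcl1), with adjusted p from 0.667 to 0.9999.

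On OP9-Dll4, 2 of the transcripts were called higher in Kit+ cells than in fresh Kit+ cells. The fresh Kit+ values also entered the choice of the genes. A choice of genes low in Kit+ favours a rise in this comparison, so its p-values are not independent of the choice. The number of members called, set beside the share of all genes, carries the same limit and is a description. In Kit+D against Kit+, Kif1c rose by 1.80 ± 0.29 (3.47-fold, limma adjusted p = 0.0113) and Klhl4 by 1.41 ± 0.24 (2.65-fold, adjusted p = 0.0167), so that 2 of the 5 were called higher, beside 1.04% of all genes. Tmem255a differed by 2.07 ± 0.53 (adjusted p = 0.0654), Ldb2 by 1.32 ± 0.33 (adjusted p = 0.0659) and Sparcl1 by 1.26 ± 0.60 (adjusted p = 0.301), and these did not pass. Tmem255a lay near the threshold: 7 of the other settings called it and 21 did not. Without the arrays numbered 3 its limma adjusted p was 0.149. Its limma adjusted p was 0.0413 with the replicate number as a fixed block and 0.0410 with housekeeping scaling. With dim genes left out it was 0.0495, with array weights 0.00594, and without either Kit-J array 0.0477. Setting the arrays equal on 7 housekeeping genes moved the median gene by 0.13 in this comparison. The mean of those genes relative to Kit- was 0.12, 0.04 and -0.38 on the Kit+D arrays, and the part of scaling in the 5 differences was not tested. Kif1c rested on its brighter probe set here too, with a value of 0.90 and an adjusted p of 0.0426 on the mean of both sets. Kit+D replicate 1 was the lowest Kit+D array for every one of the 5 genes, on average 0.99 below its group mean. Without it 4 of the 5 were called higher, without Kit+ replicate 1 none was, and without Kit+ replicate 2, Kit+ replicate 3 or Kit+D replicate 2 only 1 was. Without the arrays numbered 3, Kif1c and Klhl4 were again the 2 called.

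Kit+D replicate 1 also stood apart from the other Kit+D arrays in markers of other cells. Relative to Kit-, its mean of 18 macrophage and myeloid genes was 1.21, against -1.32 and -1.90 on Kit+D replicates 2 and 3, and its mean of 18 primordial germ cell genes was -1.51, against 1.09 and 1.83. Ptprc was at 8.99 there, against 5.54 and 4.64. The 40 endothelial genes stood at -2.31 on that array and at -1.71 and -1.56 on the other 2. The myeloid split was not limited to Kit+D. For Kit-D the myeloid means, in order of replicate number, were 0.12, -1.78 and -1.95, and Ptprc read 8.59, 4.46 and 4.16. Germ cell means of Kit-D, in the same order, were -1.88, -1.60 and -0.74, so its first replicate was lowest but near the second. Endothelial means of Kit-D (0.07, 0.003 and 0.48) did not set its first replicate apart. Erythroid markers differed between the groups compared as well: the mean of 9 erythroid genes was 0.51, 0.55 and -0.35 on the Kit+D arrays, against -1.05 to -0.89 in Kit+ and -1.50 to -1.17 in Kit+J. Of the 9, the embryonic globin genes Hba-x and Hbb-y were called in both comparisons, with Kit+D the higher group in each. The part of these differences in the results for Kit+D was not tested.

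Among the cells on OP9-Jag1, the mean of Kit+J lay below that of Kit-J for 4 of the 5 genes. The Ldb2 difference, known when the genes were chosen, was -2.73 ± 0.37 (6.65-fold) and is a description. Of the other 4, Klhl4 passed the test, lower by -1.99 ± 0.27 (3.98-fold, limma adjusted p = 0.0127), while 0.0351% of all genes (7, Ldb2 among them) were called lower. Sparcl1 differed by -2.11 ± 0.67 (adjusted p = 0.254) and Tmem255a by -1.86 ± 0.59 (adjusted p = 0.250). Kif1c differed the other way, by 0.65 ± 0.32 (adjusted p = 0.496). The Klhl4 call was lost without Kit-J replicate 1 (adjusted p = 0.0573) and without Kit+J replicate 3 (adjusted p = 0.0648), so it rests on few arrays.

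Between the stromas, Kit+J cells carried less of 3 of the transcripts than Kit+D cells. In Kit+J against Kit+D, Klhl4 was lower by -1.88 ± 0.24 (limma adjusted p = 0.00251), Ldb2 by -2.12 ± 0.33 (adjusted p = 0.00815) and Tmem255a by -2.30 ± 0.53 (adjusted p = 0.0369), which made 3 of 5 called lower, beside 1.68% of all genes. Sparcl1 differed by -2.34 ± 0.60 but did not pass (adjusted p = 0.0565). It passed under 8 of the other settings and not under 20, with a limma adjusted p of 0.105 without the arrays numbered 3. Its limma adjusted p was 0.0317 with the replicate number as a fixed block and 0.0354 with housekeeping scaling. With dim genes left out it was 0.0417, and with array weights 0.0460. Kif1c differed by -0.22 (95% interval -0.84 to 0.40). Tmem255a was no longer called without the arrays numbered 3 (adjusted p = 0.0726), and its adjusted p lay between 0.0501 and 0.136 in 12 of the 17 fits that left out 1 array. Kit+D and Kit+J cells both come from the 2 h cultures, on OP9 lines that overexpress different ligands. They also differed in the erythroid markers given above and, on Kit+D replicate 1, in the myeloid ones. The part of the ligand, the stromal line or these markers in the differences was not tested.

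The effect of OP9-Dll4 culture was also set side by side in Kit+ and Kit- cells. This difference equals Kit+D against Kit-D minus Kit+ against Kit-, the values that chose the genes, so it is a description for the members. The culture effect in Kit+ minus that in Kit- was 2.42 ± 0.74 for Tmem255a, 1.42 ± 0.85 for Sparcl1, 0.93 ± 0.47 for Ldb2, 0.76 ± 0.41 for Kif1c and 0.60 ± 0.34 for Klhl4. Over all genes limma called 0.0%, with 1790 at an unadjusted p under 0.05.

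The 5 genes were then set beside 40 endothelial identity genes, a list that holds none of them. In Kit+ against Kit- 33 of the 40 were called lower and none higher (median -2.13), among them Nrp1, a VEGF and semaphorin co-receptor (-4.07, adjusted p = 3.67e-08), the angiopoietin receptor gene Tek (-3.47, adjusted p = 9.77e-08), Kdr (-4.89, adjusted p = 9.16e-07) and the venous factor gene Nr2f2 (-2.60, adjusted p = 2.5e-06). In Kit-J against Kit- 26 were called lower (median -1.74), in Kit-J against Kit-D 34 (median -1.85) and in Kit+D against Kit-D 39 (median -1.89), and in Kit-D against Kit- none was called (median 0.28). The member medians in those first 4 comparisons were -4.57, -3.24, -3.37 and -3.15, which follows from the choice of the genes. In the tested comparisons, 2 of the 40 (Kdr and Nrp1) were called higher in Kit+D against Kit+, 1 (Tek) lower in Kit+J against Kit-J, and 5 (Tek, Emcn, Egfl7, Nrp1 and Cd93) lower in Kit+J against Kit+D. The correlation with the mean of the 40 genes over the 17 arrays, which share the division into high and low groups, was 0.99 for Klhl4, 0.97 for Tmem255a, 0.96 for Sparcl1, 0.96 for Ldb2 and 0.88 for Kif1c. After the group means were taken out, it was 0.88, 0.78, 0.71, 0.65 and 0.65 for Tmem255a, Sparcl1, Klhl4, Kif1c and Ldb2. Kit+D replicate 1, which also stood apart in myeloid and germ cell markers, deviated most, by -0.99 on average over the 5 genes. The Kit- arrays lay between -0.07 and 0.05. These correlations were not computed without Kit+D replicate 1.

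**Figure D4:**
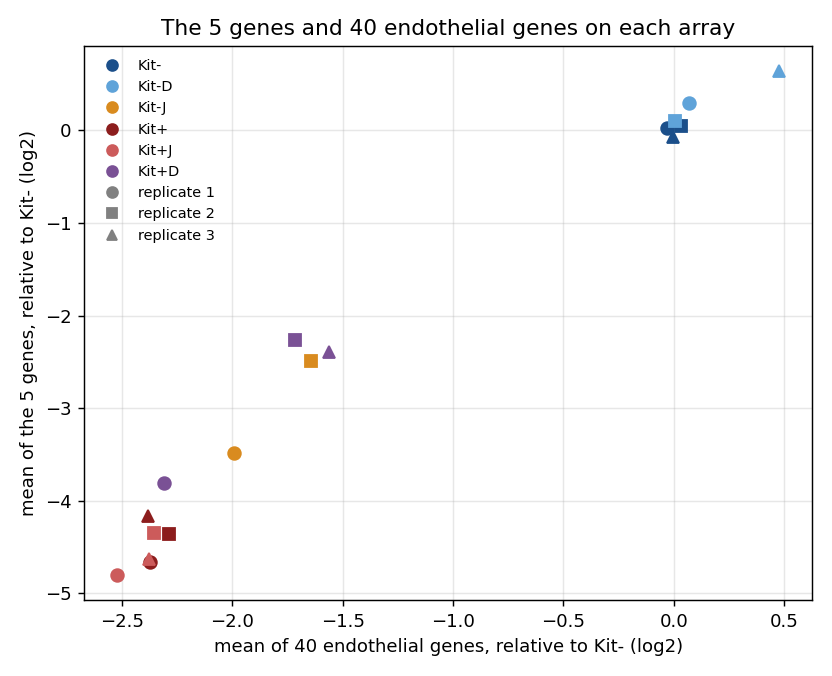
Mean log2 signal of the 5 genes (vertical) against that of 40 endothelial identity genes (horizontal) on each of the 17 arrays, both relative to the Kit- mean; colours mark groups and symbols replicate numbers. Kit+D replicate 1 lies near the Kit+ arrays, at -3.81 on the vertical axis, while Kit+D replicates 2 and 3 lie near Kit-J replicate 2, at -2.26 and -2.40.

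Within the division the members did not all follow each other. Over the 17 arrays the correlation between pairs ran from 0.79 (Ldb2 and Kif1c) to 0.98 (Tmem255a and Sparcl1). Among the 6 Kit- and Kit-D arrays, Klhl4 and Kif1c varied together (0.99), as did Klhl4 and Ldb2 (0.87), whereas Tmem255a correlated with these 3 at -0.58 to -0.49. The mean of Kit-D lay below that of Kit- for Tmem255a and above it for the other 3, and with the group means taken out over all 17 arrays Tmem255a correlated with Klhl4, Ldb2 and Kif1c at 0.74, 0.71 and 0.67. Among the 11 other arrays, Kif1c stood apart from each of the other 4 genes (0.12 to 0.49), which correlated with one another between 0.77 and 0.94. These are descriptions over few arrays that share groups, and they carry no test.

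The genes with the most similar profile were ranked by Pearson's r over the 17 arrays and taken 5 to a member. These values share the high and low groups for which the members were chosen. For Tmem255a they were the apelin receptor gene Aplnr (0.99), the imprinted gene Mest (0.99), Emcn, which encodes the endothelial sialomucin endomucin (0.98), Cdh5 (0.98) and the adhesion receptor gene Adgrf5 (0.98). Klhl4 was closest to Tek (0.99), the endothelial phosphatase gene Ptprb (0.99), Nrep (0.99), the phosphatase gene Ptprm (0.98) and Kdr (0.98). Ldb2 was closest to Cdh5 (0.97), S100a16 (0.97), Ptprm, Ptprb (both 0.97) and Aplnr (0.96), and Sparcl1 to Emcn (0.98), Adgrf5, Aplnr (both 0.97), Ecscr and Mest (both 0.97). The 5 nearest genes of Kif1c were the arginine methyltransferase gene Prmt2 (0.94), the annexin gene Anxa2 (0.94), the ubiquitin ligase gene Pja2 (0.94), Sema6a (0.94) and the VEGF receptor gene Flt1 (0.93). It shared none of the 5 nearest genes of the other members.

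The relatives of each gene mostly did not share its fall. The only other Tmem255 gene, Tmem255b, differed by -0.16 from Kit- to Kit+ (adjusted p = 0.760) and was not called in any of the 10 comparisons. Of 38 other kelch-like genes measured, none was called in Kit+ against Kit- (median 0.01). Over all genes 2.67% were called lower and 0.562% higher there, so a list of this size would hold few calls in any case. In all, limma gave an unadjusted p under 0.05 to 2690 genes there. The 4 kelch-like genes nearest to a call were Klhl28 (1.03), Klhl32 (1.82), Klhl15 (0.55) and Klhl5 (-0.62), with adjusted p from 0.150 to 0.266. Klhl32 went opposite to Klhl4 in Kit-J, higher by 3.001 ± 0.70 against Kit- (adjusted p = 0.0373) and by 3.71 ± 0.70 against Kit-D (adjusted p = 0.00469). In Kit+D against Kit-D 3 of the 38 kelch-like genes were called lower (Klhl5, Klhl35 and Klhl36, by -0.80 to -0.52). That is near the share over all genes, of which 6.62% were called lower there. Klhl21 was called higher by 0.60, and the share of all genes called higher there is not given here.

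The genes of proteins that work with LDB cofactors were mostly not called. Of 26 genes for LIM factors, LMO proteins, their partners and the SSBP co-factors, none was called in Kit+ against Kit- (median 0.15). Over all genes 2.67% were called lower there, so few calls would be met in a list of this size. Ldb1, the paralogue that bridges the haematopoietic Tal1 and Lmo2 complex, differed by -0.15 (adjusted p = 0.859) and Lmo2 by -0.31 (adjusted p = 0.789). Lmo2 differed by -1.24 ± 0.37 between Kit-J and Kit-D (adjusted p = 0.0482), Isl1 by -1.68 ± 0.25 between Kit+D and Kit-D (adjusted p = 0.000717), and Ssbp4 by 0.88 ± 0.15 between Kit-J and Kit- (adjusted p = 0.0047).

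Kif1c and Sparcl1 each had a relative that fell with them. Of 6 other kinesin-3 genes only Kif1b, the motor of mitochondria and synaptic vesicle precursors, was called in Kit+ against Kit- (-1.35 ± 0.20, adjusted p = 0.000831), and it was also lower in Kit-J than in Kit- (-1.01 ± 0.22, adjusted p = 0.0269). Kif1a, known mainly from neurons, differed by 0.05. None of 16 other transport kinesin genes (median -0.01) and none of 12 mitotic kinesin genes (median 0.28) was called in Kit+ against Kit-, beside 2.67% of all genes called lower. Of 7 other SPARC family genes, Sparc itself fell by -2.00 ± 0.31 (adjusted p = 0.00124) and Fstl1, a secreted follistatin-like glycoprotein, by -2.17 ± 0.34 (adjusted p = 0.00127), and the other 5 were not called. In Kit-J against Kit- Fstl1 was called (-1.71 ± 0.38, adjusted p = 0.0274) and Sparc was not (-1.26 ± 0.35, adjusted p = 0.0866). Against Kit-D both were lower in Kit-J, Sparc by -1.22 and Fstl1 by -2.31.

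**Figure D5:**
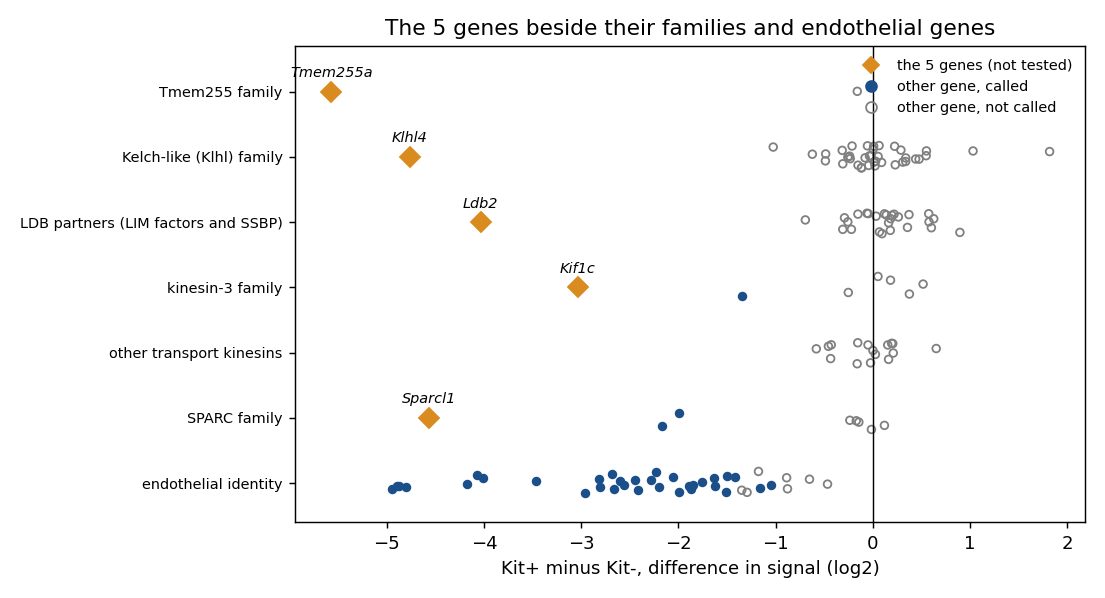
Difference in log2 signal between Kit+ and Kit- for the 5 genes (diamonds, not tested), for the other measured genes of their families or partners, and for 40 endothelial identity genes; filled circles are called at an adjusted p under 0.05. Kif1b, Sparc and Fstl1 are the called relatives, and the diamonds lie among the lower endothelial genes or below them, from -3.04 to -5.57.

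Markers of other cell types also moved between the groups, and their part in the results for the 5 genes was not tested. Of 21 stromal and mural genes 4 were called lower in Kit+ than in Kit- (Pdgfra, Twist1, Dcn and Prrx1; median of the list -0.66), and the list's mean level relative to Kit- ran from -0.98 to -0.92 in Kit+ and from -0.30 to 0.42 in Kit-D. Of 18 primordial germ cell genes, 2 were called higher in Kit+ than in Kit- (Kit, on which the cells were sorted, and Prdm14), and the list's mean relative to Kit- was between 0.98 and 1.30 in Kit+ and at 1.01 and 0.72 on the Kit-J arrays, while the Kit-D arrays lay between -1.88 and -0.74. Of these 18 genes, 10 were called higher in Kit-J against Kit-D (median 2.28) and 8 in Kit+D against Kit-D (median 1.79), comparisons in which the 5 genes were lower. Over all genes, limma gave an unadjusted p under 0.05 in either direction to 5479 and 5565 in these comparisons. The share of all genes called higher in them is not given here. Of 18 macrophage and myeloid genes, 1 (Clec7a) was called lower in Kit+. Xist, made from the inactive X of female cells, was at 8.44 to 8.72 in Kit-, 7.25 to 7.85 in Kit+ and 5.31 on Kit+D replicate 3. That array held the highest Tmem255a value of the 11 low arrays, and both Tmem255a and Klhl4 are X-linked; the part of embryo sex in their levels was not tested.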

How the data were processed

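The 17 arrays (Affymetrix Mouse Gene 1.0 ST) were grouped by the titles and cell population labels, and the 17 columns of the value table were matched by sample. The deposited log2 values are the authors' RMA output, per the labels; the RMA version is not given in the sources used here. Values ran from 1.24 to 13.58. The number of arrays limits the precision. Of 34760 probe sets, 21640 carried 1 symbol, 1321 several and 11799 none; 21553 matched the RefSeq table by Entrez number and 0 symbols changed. A gene was read from its brightest single-symbol probe set, which left 19937 genes, 954 of them with more than 1 probe set. No filter on dim genes was used.

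Contrasts were fitted with limma 3.58.1 in R 4.3.3 (lmFit and eBayes) as contrasts of the 6 group means fitted to all 17 arrays, with Benjamini-Hochberg adjustment over all genes and calls at an adjusted p under 0.05. The methods do not name the study's own test of differential expression. The methods state independent sorting experiments for the cultured arrays, and 1 Kit-J sample was excluded by the authors. Deviations from the group means correlated at 0.46, 0.18 and 0.29 between the OP9-Dll4 arrays of 1 number, at 0.01 to 0.06 between fresh ones and at -0.11 and -0.26 between OP9-Jag1 ones. Simulated data took the group means of the real genes and independent normal noise with 1 spread per gene. Unequal spread between groups and correlated arrays were left out, so recovery in the real data may differ. There limma recovered 63 of 100 changes of 1 and 96 of 100 changes of 2 in Kit-D against Kit-, with 15 unchanged genes called. In Kit+J against Kit+ it recovered 54 and 91, with 14 unchanged genes called.

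The 5 genes and all gene lists were chosen with earlier results of these data known. The rule for named genes took the 5 genes, the 5 genes most like each by Pearson's r, up to 4 genes of a list with the smallest adjusted p, and Kit, Kdr and Cdh5; called relatives beyond it, Ldb1, Lmo2, Kif1a and Sparc in Kit-J against Kit-, and the values of Ptprc and Xist and the calls of Hba-x and Hbb-y were added after their values were seen. The marker lists for erythroid, megakaryocyte, haematopoietic, epithelial and X-inactivation or Y-linked genes were computed as well: in Kit+ against Kit-, 2 of 9, 2 of 7, 1 of 19, 0 of 12 and 0 of 4 were called lower, and 2 of the 19 haematopoietic genes higher. Promoter windows came from RefSeq (GRCm38.p6) and motifs were exact matches. Alternatives were the samples in the fit, the variance prior, dim genes, scaling, array weights, probe sets, a replicate block and leaving out arrays. Figures were drawn with Python 3.11.15.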

Additional observations from a re-analysis of the deposited data

Results flagged for a closer look

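Kif1c moved in opposite directions after OP9-Jag1 culture in the Kit- and the Kit+ cells. Both Kit-J arrays lay below all Kit- arrays and all 3 Kit+J arrays lay above all Kit+ arrays, and the culture effects differed by 3.69 (Kit+ minus Kit-, log2). This difference was not tested. It rests on the brighter probe set: on the dimmer one the Kit- cells fell by 0.97 and the Kit+ cells differed by 0.04.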

How the results depend on the processing

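The medians of the 5 genes kept their sign under every alternative run and moved by less than 1 replicate SD in all but 3 of the fits without 1 array, over which they ran from -4.72 to -4.20 in Kit+ against Kit-, from -3.35 to -2.66 in Kit-J against Kit-, from -4.16 to -2.51 in Kit-J against Kit-D and from -3.57 to -2.41 in Kit+D against Kit-D. With only the groups compared in the fit, the members called fell to 0 in Kit+D against Kit+, Kit+J against Kit-J and Kit+J against Kit+D, where fewer arrays estimate the spread. With housekeeping scaling 1 gene (Kif1c, adjusted p = 0.0331) was called in Kit+J against Kit+. Housekeeping scaling also added Tmem255a in Kit+D against Kit+ (adjusted p = 0.0410) and Sparcl1 in Kit+J against Kit+D (adjusted p = 0.0354). Leaving out dim genes added the same calls (adjusted p = 0.0495 and 0.0417). With array weights 2 were called in Kit-D against Kit- (Klhl4 and Kif1c), 4 in Kit+D against Kit+ and 1 in the interaction (Tmem255a); the cause was not tested. Leaving out arrays gave 0 to 4 called in Kit+D against Kit+, 0 to 1 in Kit+J against Kit+ (1 without either Kit-J array), 0 to 2 in Kit+J against Kit-J (Ldb2 counted, whose difference was known when the genes were chosen) and 0 to 1 in the interaction, which is not independent of the choice of the genes. Single values changed sign in 3 fits, each near 0: Sparcl1 in Kit-D against Kit- without Kit-D replicate 2 (0.106, over these fits -0.431 to 0.106), Tmem255a in Kit+J against Kit+ without Kit+J replicate 1 (0.0176, range -0.435 to 0.0176) and Kif1c in Kit+J against Kit+D without Kit+D replicate 2 (0.0213, range -0.396 to 0.0213).

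With the replicate number as a fixed block, Tmem255a was also called in Kit+D against Kit+ (2.07, adjusted p = 0.0413) and Sparcl1 in Kit+J against Kit+D (-2.34, adjusted p = 0.0317); the block changed no other call, and a random replicate block changed none. Leaving out the Kit-D and Kit+D arrays numbered 3 was chosen after seeing the data.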
